A study of Arabidopsis thaliana with 24 samples.

Results

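GH3.3 (AT2G23170) and LBD29 (AT3G58190) are 2 genes that Arabidopsis thaliana transcribes in response to the hormone auxin. Each was taken as the feature whose single gene in the platform's annotation was that locus, which gave 1 feature per gene, 2 of 28583 features on the array and of 16746 with exactly 1 gene. They were described in rosettes and roots of Col-0, the reference accession, and of the mutant rpt2-3a, with 3 arrays in each of 8 groups. All plants grew hydroponically in short days, 8 h of light and 16 h of darkness, and were 5 weeks old when they either stayed on complete medium (normal sulfur) or went to sulfur-deficient medium for 5 days. The mutant carries 1 allele, rpt2-3a, of a gene for the proteasome subunit RPT2, and that gene was not analysed here, so nothing measured checked the genotype labels. The arrays of a group are called biological replicates in the series' design text. How many plants went into an array is not given in the sources used here.

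Auxin acts by bringing Aux/IAA repressor proteins to the TIR1/AFB receptors, F-box proteins of a ubiquitin ligase. The repressors are then broken down by the proteasome, and the auxin response factors (ARFs) they held back switch on their target genes. Among the fastest targets are GH3 genes, whose enzymes join auxin to amino acids and so remove the free hormone. LBD29 is a transcription factor of the LOB-domain family that works below ARF7 and ARF19, together with LBD16 and LBD18, in the start of lateral roots.

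The deposited values were read as log2 expression values, and a difference of 1 is 2-fold if the base is 2, as assumed here. The labelled organs were borne out by their markers. The 3 measured of 5 leaf markers (RCA, PSAE1 and LHCB4.1) had rosette values of 9.53 to 11.44 and root values of 2.37 to 5.46. The 2 measured of 5 root markers (EXPA7 and EXPA18) ranged from 6.04 to 7.89 in roots and only from 1.81 to 2.62 in rosettes. The array medians ran from 4.03 to 4.14 in rosettes and from 4.47 to 4.55 in roots. Arrays of a group correlated across features with r between 0.989 and 0.994. An array gives no count depth, so the number of arrays limits the precision, and no slide or scan batch was given.

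The genes had opposite organ patterns: GH3.3 was brighter in rosettes and LBD29 in roots. GH3.3 ran from 3.95 to 5.33 over the 12 rosette arrays, with a median of 4.505, and from 2.27 to 3.22 over the 12 root arrays, with a median of 2.69. LBD29 ran from 1.66 to 2.22 in rosettes (median 1.995) and from 4.29 to 5.1 in roots (median 4.575). For neither gene did any array of one organ reach the range of the other. The share of all features so separated over the 12 arrays of each organ was not computed. Within each genotype and supply the organs did not overlap for 66.1% (Col-0, normal), 66.0% (Col-0, deficient), 64.7% (rpt2-3a, normal) and 67.4% (rpt2-3a, deficient) of all features. In its dim organ each gene's feature was among the dimmer ones of the array, at percentiles 15.7 to 33.7 of all features for GH3.3 in roots and 2.0 to 15.3 for LBD29 in rosettes. No detection call was given, so whether LBD29 was detected in rosettes, or GH3.3 in roots, is unknown here. The same holds for the Col-0 roots in the genotype comparisons of GH3.3. The folds given are ratios of signal, and where the dimmer side was not above background they are lower bounds. In whole organs, fewer cells that express a gene and less of its RNA per cell cannot be told apart.

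**Figure D1:**
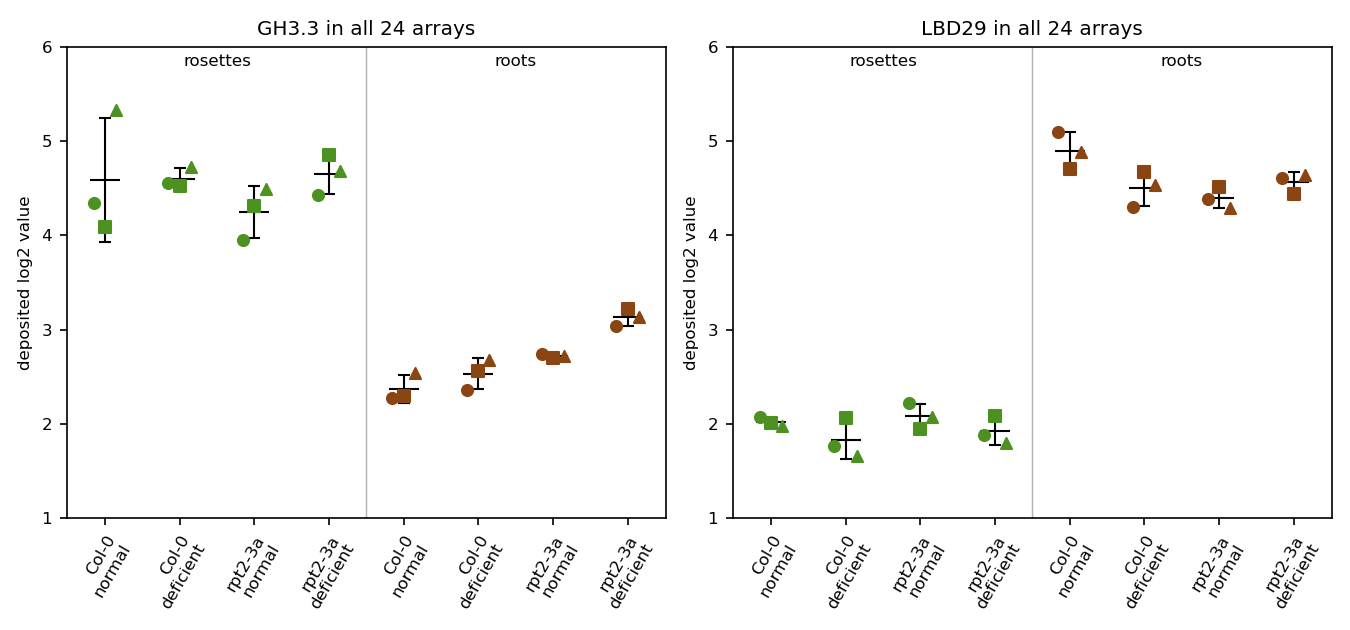
Deposited values, read as log2, of GH3.3 (left) and LBD29 (right) in all 24 arrays, by genotype and sulfur supply. Rosettes are in green and roots in brown. Circles, squares and triangles are replicates 1, 2 and 3, bars give the mean ± SD (n = 3), and GH3.3 in roots is highest in rpt2-3a under sulfur deficiency, at 3.04 to 3.22.

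How far roots differed from rosettes was tested in each genotype and supply with limma over all 24 arrays, adjusted by Benjamini-Hochberg over all features. In Col-0 at normal sulfur LBD29 was 7.34-fold higher in roots (log2 difference 2.88 ± 0.13 SE, adjusted p = 1.5e-15) and GH3.3 4.65-fold lower (-2.22 ± 0.21, adjusted p = 1.7e-09). Both genes passed, as did 63.4% of all features, so that an organ difference as such was the rule on this array. In the other groups LBD29 was 4.98-fold to 6.38-fold higher in roots and GH3.3 2.87-fold to 4.2-fold lower, and again both passed, beside 63.7% of features in Col-0 under deficiency and 62.5% and 61.7% in rpt2-3a at normal and deficient sulfur. The median feature stood 0.19 to 0.22 higher in roots as deposited. With each array centred on its own median it stood lower in roots instead, at -0.16 to -0.23, and the passing features of Col-0 at normal sulfur went from 12368 higher and 5753 lower in roots to 7692 higher and 10974 lower. The directions of GH3.3 and LBD29 did not turn, at -2.59 and 2.5 in that group.

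GH3.3 levels in roots fell into an order by genotype and supply. The Col-0 arrays read 2.27, 2.3 and 2.54 at normal sulfur and 2.36, 2.56 and 2.68 under deficiency. The rpt2-3a arrays read 2.74, 2.7 and 2.72 at normal sulfur and 3.04, 3.22 and 3.13 under deficiency. Both rpt2-3a groups lay above both Col-0 groups with no overlap, the deficient mutant highest of the 4, while the Col-0 groups overlapped each other. The margin was narrow, with the lowest rpt2-3a array at 2.7 and the highest Col-0 array at 2.68. How many features have such an order was not computed.

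The difference between genotypes in deficient roots was the one within an organ that passed for either gene. GH3.3 averaged 3.13 ± 0.09 in rpt2-3a and 2.53 ± 0.16 in Col-0 (mean log2 ± SD, n = 3), 1.51-fold higher in the mutant (log2 difference 0.6 ± 0.11 SE, adjusted p = 0.026 by limma over the 12 root arrays). Of all features 0.770% passed in this comparison and 15.1% had groups that did not overlap. The call was lost when only the 2 groups were fitted (adjusted p = 0.093), and when all 24 arrays were fitted together (adjusted p = 0.21), where the standard error of GH3.3 was 0.21. Leaving out 1 of the 6 arrays kept the difference between 0.51 and 0.67, but it passed in only 1 of these 6 fits, the one without Col-0 replicate 3 (adjusted p = 0.042). Without Col-0 replicates 1 and 2 the adjusted p was 0.12 and 0.064, and without rpt2-3a replicates 1, 2 and 3 it was 0.055, 0.13 and 0.071. At deficient sulfur the summed linear signal of the 3 leaf markers, of the organ where GH3.3 is brighter, was 39.4 to 49.2 in rpt2-3a roots and 44.9 to 77.3 in Col-0 roots. Its part in the difference was not tested.

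At normal sulfur the same difference in GH3.3 was 0.35 ± 0.11, a 1.27-fold higher level in rpt2-3a roots, and did not pass (adjusted p = 0.28, 95% interval 0.11 to 0.59). Its groups did not overlap, as was so for 13.7% of features. The summed leaf marker signal here was 51.0 to 89.0 in rpt2-3a and 47.7 to 65.8 in Col-0 roots, and its part in the difference was not tested. Under deficiency GH3.3 stood 0.41 ± 0.11 above normal sulfur in rpt2-3a roots (adjusted p = 0.21) and 0.16 ± 0.11 above in Col-0 roots (adjusted p = 0.72). The mutant's groups did not overlap (14.7% of features), and neither response passed, beside 0.143% and 0.875% of features that did. The direct test of whether the responses differed gave 0.25 ± 0.16 (adjusted p = 0.96, 95% interval -0.09 to 0.58), with 0.0105% of features passing. These comparisons share arrays, so they are not independent of one another.

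LBD29 in roots stood highest in Col-0 at normal sulfur. Its arrays read 5.1, 4.7 and 4.89 there and 4.3, 4.67 and 4.54 under deficiency. In rpt2-3a they read 4.39, 4.51 and 4.29 at normal sulfur and 4.61, 4.44 and 4.64 under deficiency. The Col-0 arrays at normal sulfur lay above all 9 other root arrays, while the other 3 groups overlapped one another. This gap was narrow, from 4.7 in Col-0 at normal sulfur to 4.67 in Col-0 under deficiency. How many features have such an arrangement was not computed. Of all features 13.7% had no overlap between genotypes in roots at normal sulfur.

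No difference in LBD29 within roots passed. In rpt2-3a at normal sulfur it stood 0.5 ± 0.13 below Col-0, 1.41-fold lower, at 4.4 ± 0.11 against 4.9 ± 0.2 (adjusted p = 0.14, 95% interval -0.78 to -0.22), with 0.577% of features passing. At deficient sulfur the genotypes averaged 4.56 ± 0.11 and 4.5 ± 0.19, a difference of 0.06 ± 0.13 (95% interval -0.22 to 0.34). Deficiency went with a value 0.39 ± 0.13 SE below normal sulfur in Col-0 (-0.39, adjusted p = 0.28), without overlap as for 12.7% of features, and 0.17 ± 0.13 above it in rpt2-3a (adjusted p = 0.8). The difference of these responses was 0.56 ± 0.18 (adjusted p = 0.84, 95% interval 0.17 to 0.95). Its unadjusted p was 0.0086, which is not small among 28583 features. At normal sulfur the summed signal of the 2 root markers was 263 to 330 in Col-0 and 233 to 279 in rpt2-3a roots. It was lower in the group where LBD29 was lower, with an overlap. Under deficiency it was 260 to 320 in Col-0 and 264 to 354 in rpt2-3a roots. In Col-0 roots it averaged 297 at normal and 299 at deficient sulfur, where LBD29 was lower. The part of this signal in the differences was not tested.

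**Figure D2:**
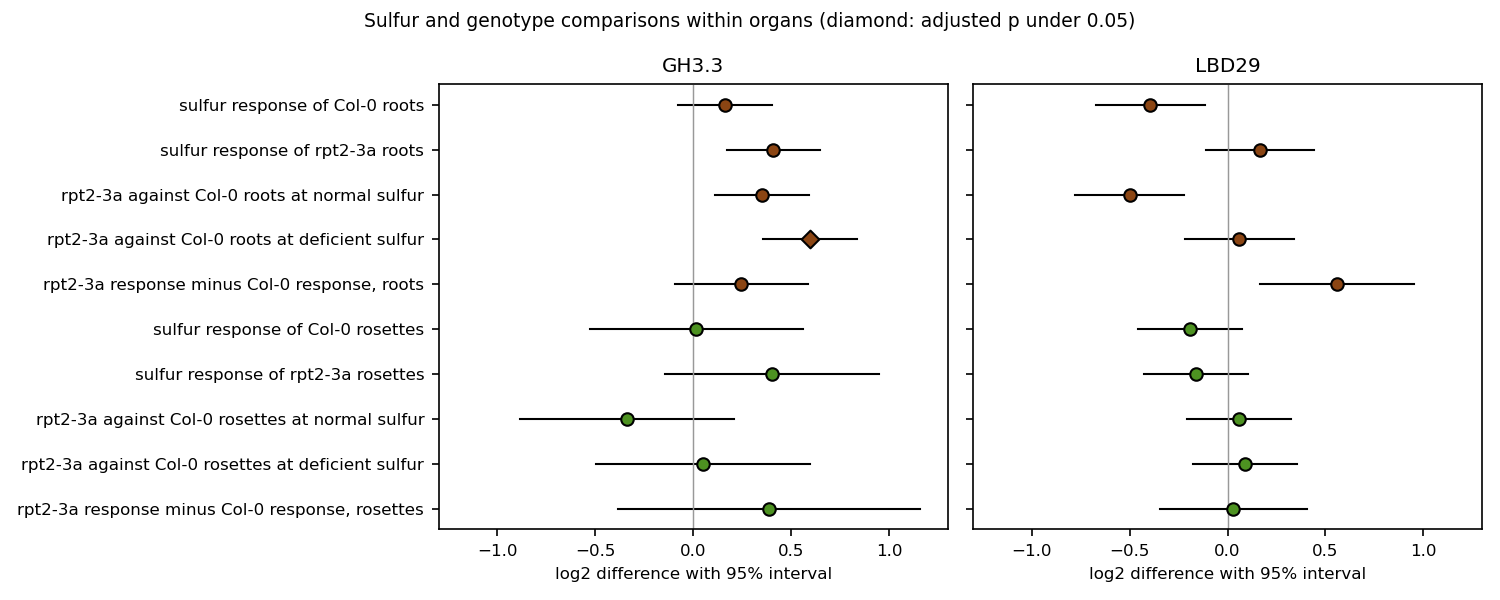
Log2 differences of GH3.3 (left) and LBD29 (right) with 95% intervals for the 5 comparisons in roots (brown) and the 5 in rosettes (green). A diamond marks an adjusted p under 0.05, which GH3.3 reaches between genotypes in sulfur-deficient roots (0.6) and LBD29 in none.

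In rosettes neither gene changed with supply or genotype beyond the spread. GH3.3 read 4.34, 4.09 and 5.33 in Col-0 at normal sulfur and 4.56, 4.52 and 4.73 under deficiency. In rpt2-3a it read 3.95, 4.31 and 4.49 at normal sulfur and 4.43, 4.85 and 4.68 under deficiency. All 4 groups overlapped with their neighbours in level, and replicate 3 of Col-0 at normal sulfur stood 0.99 above the next array of its group. The sulfur response of GH3.3 was 0.02 ± 0.25 in Col-0 and 0.4 ± 0.25 in rpt2-3a (adjusted p = 0.99 and 0.54). That single array sets the first value: without it the Col-0 response was 0.39 (adjusted p = 0.53). Between genotypes GH3.3 stood at -0.34 ± 0.25 at normal sulfur and 0.05 ± 0.25 under deficiency in rpt2-3a against Col-0, and the first became 0.04 without the same array.

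LBD29 in rosettes read 2.07, 2.01 and 1.98 in Col-0 at normal sulfur, and 1.77, 2.06 and 1.66 under deficiency. The rpt2-3a rosettes read 2.22, 1.95 and 2.07 at normal sulfur and 1.88, 2.08 and 1.8 under deficiency. The deficient groups averaged 0.19 ± 0.12 SE below normal sulfur in Col-0 (-0.19, adjusted p = 0.74) and 0.16 ± 0.12 below it in rpt2-3a (-0.16, adjusted p = 0.63), and all groups overlapped. Of all features 0.129% passed for supply in Col-0 rosettes and 1.55% in rpt2-3a rosettes, and 2.01% and 0.322% passed between genotypes at normal and deficient sulfur. The difference of responses between genotypes was 0.39 ± 0.36 for GH3.3 and 0.03 ± 0.17 for LBD29 in rosettes, where 0% of features passed by limma and 2650 had an unadjusted p under 0.05.

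Whether roots and rosettes differed in these effects was tested over all 24 arrays. The mutant effect on GH3.3 at normal sulfur was 0.69 ± 0.29 higher in roots than in rosettes (adjusted p = 0.32) and that on LBD29 0.56 ± 0.18 lower (-0.56, adjusted p = 0.15), and 1.32% of features passed. Under deficiency these differences were 0.55 ± 0.29 (adjusted p = 0.59) and -0.03 ± 0.18, with 0.465% passing. The sulfur responses differed between organs by 0.15 ± 0.29 for GH3.3 and -0.2 ± 0.18 for LBD29 in Col-0, and by 0.01 ± 0.29 and 0.33 ± 0.18 in rpt2-3a (0.469% and 0.399% of features passing). None of the 8 passed.

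Over all 8 groups the levels of GH3.3 ran from 4.65 ± 0.21 in deficient rpt2-3a rosettes, through 4.6 ± 0.11 and 4.59 ± 0.66 in Col-0 rosettes under deficiency and at normal sulfur, to 4.25 ± 0.27 in rpt2-3a rosettes at normal sulfur. Then followed the roots, with 3.13 ± 0.09 and 2.72 ± 0.02 in deficient and normally supplied rpt2-3a and 2.53 ± 0.16 and 2.37 ± 0.15 in deficient and normally supplied Col-0. Neighbours among the rosettes overlapped and so did the lowest pair, while each of the 3 steps in between was free of overlap. For LBD29 the 4 root groups came first, and the rosettes followed with 2.08 ± 0.14 and 2.02 ± 0.05 at normal sulfur in rpt2-3a and Col-0 and 1.92 ± 0.14 and 1.83 ± 0.21 under deficiency. Only the first step, below Col-0 roots at normal sulfur, and the step between the organs were free of overlap. For neither gene was the share of all features with such an order computed.

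Among the other GH3 genes, 5 had a feature with 1 gene. GH3.1, a close relative whose enzyme also conjugates auxin, showed the same side of the genotype difference in roots. It read 5.48, 5.66 and 5.71 in Col-0 and 5.76, 6.18 and 5.96 in rpt2-3a at normal sulfur, and 5.71, 5.73 and 5.63 in Col-0 and 5.98, 6.07 and 6.27 in rpt2-3a under deficiency. The mutant's arrays lay above those of Col-0 at each supply, by 0.35 ± 0.12 (adjusted p = 0.35) and 0.42 ± 0.12 (adjusted p = 0.17), and neither passed. Groups without overlap were found for 13.7% and 15.1% of all features in these comparisons. GH3.5, an auxin-conjugating enzyme that also accepts salicylic acid, stood at -0.01 and 0.06 in the same comparisons, GH3.17 at -0.06 and -0.28, GH3.4 at -0.15 and -0.12 and GH3.9 at -0.19 and -0.02. Thus 0 of the 5 passed between genotypes in roots by limma, and at an unadjusted p under 0.05 GH3.1 would at both supplies and GH3.17 under deficiency, as would 9.23% and 10.8% of all features at normal and deficient sulfur.

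The organ patterns of the GH3 genes were mixed. In Col-0 at normal sulfur GH3.9 was 2.8-fold lower in roots, on the side of GH3.3. By contrast GH3.17 was 11.1-fold, GH3.5 5.95-fold, GH3.1 5.05-fold and GH3.4 2.16-fold higher there. All 5 passed, as did 63.4% of all features in this comparison. GH3.5 in rosettes of Col-0 at normal sulfur read 3.97, 4.2 and 5.34, so its highest array was that of GH3.3. LBD16, which acts with LBD29 in lateral root initiation, was 10.5-fold higher in roots (log2 difference 3.4 ± 0.13, adjusted p = 7.0e-17). It read 1.73 to 2.13 in rosettes, where its detection is unknown too, so this fold may be a lower bound. It did not pass for supply or genotype in roots, with values of 0.02 and 0.08 for the sulfur response of Col-0 and rpt2-3a and of 0.14 and 0.21 for rpt2-3a against Col-0 at normal and deficient sulfur. LOB, which gave the family its name, was 1.33-fold lower in roots (-0.42 ± 0.16, adjusted p = 0.028) and dim in both organs, at 1.63 to 2.25 in roots and 2.13 to 2.91 in rosettes. In rpt2-3a that organ difference missed the threshold at normal sulfur (adjusted p = 0.051).

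**Figure D3:**
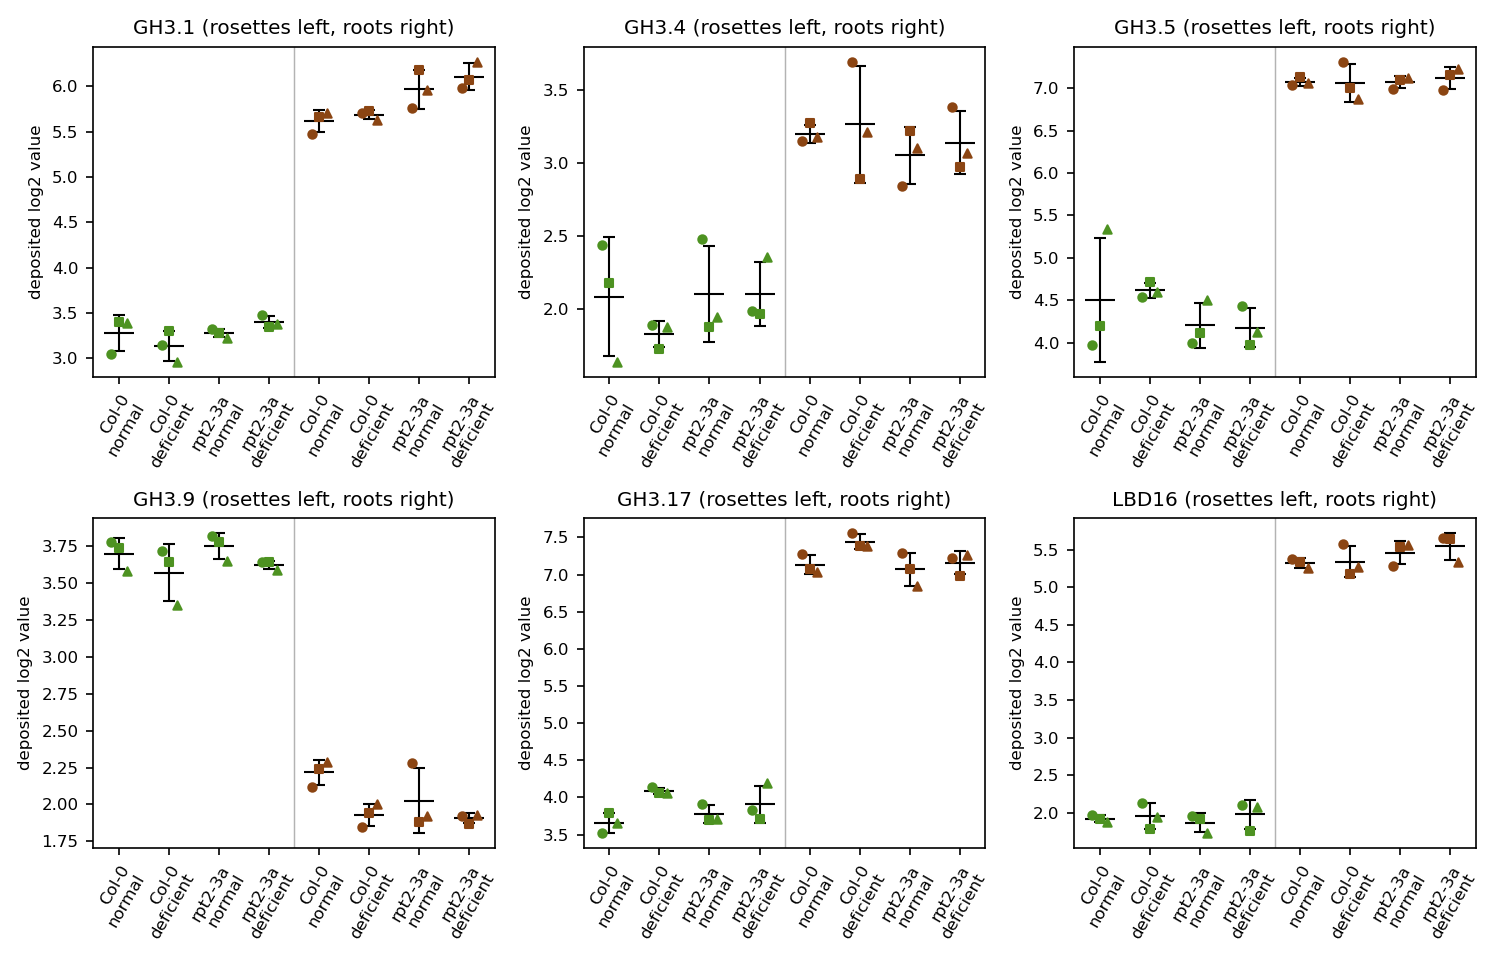
Deposited values, read as log2, of 5 other GH3 genes and of LBD16 by group, drawn as for GH3.3 and LBD29. Each panel has its own scale that does not start at 0. GH3.1 lies higher in rpt2-3a than in Col-0 roots at both supplies without overlap, and GH3.5 has its highest rosette value (5.34) on the array that is highest for GH3.3.

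Of 246 loci listed for auxin synthesis, transport, perception, response and inactivation and for lateral root formation, 31 had a feature with 1 gene, of which 29 besides GH3.3 and LBD29. These were 8 Aux/IAA repressor genes, 5 GH3 genes, 2 LBD genes, 5 SAUR genes, 4 genes of auxin synthesis, 4 of its inactivation or release and PUCHI, an AP2/ERF factor of the lateral root primordium. Whether the receptors, ARFs and transporters have features among those with several genes or none was not analysed here. Over the 10 comparisons within organs 1 of the 29 passed, once: YUC6, a flavin monooxygenase of the last step of auxin synthesis, in the sulfur response of Col-0 roots. That is 0.345% of the 290 values of these genes, beside 0.639% of the values of all features over the 10 comparisons and 0.875% in the Col-0 root response.

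YUC6 read 4.55, 4.68 and 4.53 in Col-0 roots at normal sulfur and 5.26, 5.21 and 5.53 under deficiency, a 0.75 ± 0.16 higher value (adjusted p = 0.043). In rpt2-3a roots it read 4.79, 5.14 and 5.02 at normal sulfur and 4.95, 4.87 and 4.34 under deficiency, so these groups overlapped. The difference of the responses was -1.01 ± 0.22 (adjusted p = 0.41). The call in Col-0 held in 5 of 14 other settings and in none of the 6 fits without 1 array, whose adjusted p ran from 0.078 without deficient replicate 2 to 0.16 without deficient replicate 3. In deficient roots, where GH3.3 was higher in the mutant, YUC6 stood 0.61 lower in it (-0.61 ± 0.16, adjusted p = 0.11).

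The other lists gave no call within organs by limma, with each gene taken by its brightest feature. Of the 290 values (29 genes in 10 comparisons) 26 (8.97%) had an unadjusted p under 0.05, YUC6 included, beside 9.91% of the values of all features. Of the Aux/IAA genes measured, the smallest p were those of IAA15 (-0.5 in the sulfur response of rpt2-3a roots, adjusted p = 0.35) and IAA20 (-0.41 in the difference of rosette responses, adjusted p = 0.39). Which of the measured Aux/IAA genes encode proteins that the proteasome breaks down was not checked. Of the SAUR genes, small auxin-induced growth genes, SAUR57 stood at 0.39 and 0.33 in rpt2-3a against Col-0 rosettes at normal and deficient sulfur (adjusted p = 0.18 and 0.39). DAO1, the dioxygenase that oxidises auxin, stood at 0.52 in the sulfur response of rpt2-3a rosettes (adjusted p = 0.21), UGT74D1, an auxin glucosyltransferase, at 0.36 in deficient rpt2-3a against Col-0 rosettes (adjusted p = 0.44), GH3.17 at 0.43 in the response of Col-0 rosettes (adjusted p = 0.29) and PUCHI at -0.31 in the response of Col-0 roots (adjusted p = 0.5). Another, dimmer feature of UGT74D1 averaged 3.82 at normal and 3.2 at deficient sulfur in Col-0 rosettes, and 3.44 at both in rpt2-3a rosettes. Its tests are not given here. In rpt2-3a against Col-0 roots under deficiency the 29 genes had a median of 0.03, with 16 above 0, and the median of all features was -0.01.

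**Figure D4:**
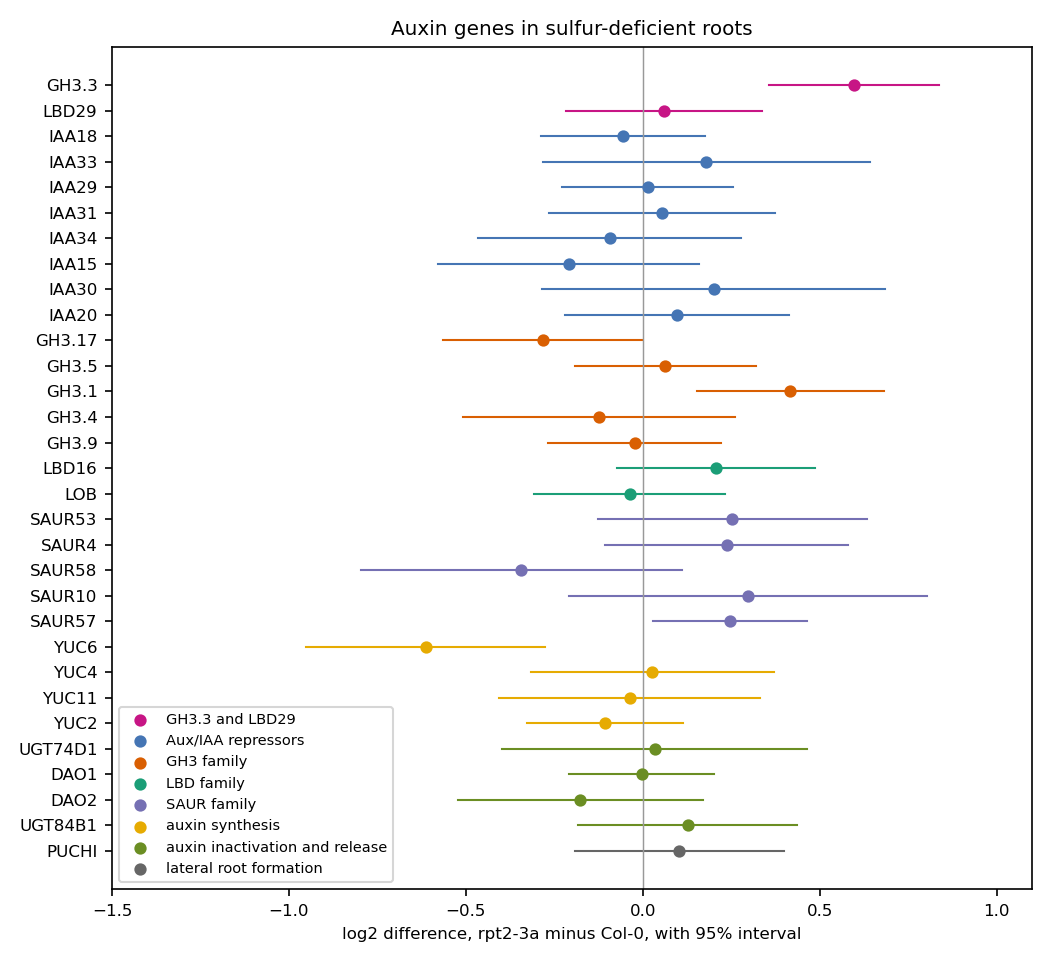
Log2 differences between rpt2-3a and Col-0 in sulfur-deficient roots, with 95% intervals, for GH3.3, LBD29 and the 29 other measured auxin and lateral root genes, coloured by list. GH3.3 (0.6) and GH3.1 (0.42) stand farthest to the right and YUC6 (-0.61) farthest to the left.

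Likeness of pattern was measured as Pearson's r over the 24 arrays after subtracting each gene's mean in each organ, over all 16746 features with 1 gene. The 5 genes most like GH3.3 were AT2G38870 (r = 0.76), AT4G33610 and AT4G36640 (r = 0.75 each), AT4G34180 (r = 0.72) and AT4G33560 (r = 0.71). Among the root groups all 5 were lowest in Col-0 at normal sulfur and highest in deficient rpt2-3a by group mean, as GH3.3 was. They were picked by likeness on these same arrays, so the shared order is no separate support. Organ levels did not enter r: unlike GH3.3, AT4G33610 (group means 1.95 to 2.17 in rosettes, 7.3 to 7.85 in roots) and AT4G36640 (5.7 to 5.96, 7.37 to 8.28) were brighter in roots. AT2G38870, AT4G33610 and AT4G34180 had its full order of the 4 root groups, AT2G38870 for example at 3.91 and 4.23 in Col-0 and 4.47 and 4.5 in rpt2-3a for normal and deficient sulfur. In AT4G33560 (2.67 and 3.24 in Col-0, 3.15 and 4.13 in rpt2-3a) and AT4G36640 (7.37 and 7.9, 7.73 and 8.28) the middle groups stood the other way round. Most like LBD29 were AT1G77500 (r = 0.75), AT5G51520 (r = 0.72), AT1G11070 (r = 0.7), AT1G01390 (r = 0.69) and AT2G47250 (r = 0.68). All 5 were highest among root groups in Col-0 at normal sulfur, as LBD29 was. AT1G77500 averaged 6.62 and 6.28 in Col-0 and 6.29 and 6.24 in rpt2-3a roots at normal and deficient sulfur. GH3.3 and LBD29 themselves had r = -0.34 (-0.35 in roots and -0.36 in rosettes). These values describe the arrays used, which share group and array effects, and the listed genes are the highest of many.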

How the data were processed

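The series' value table of 24 single-colour Affymetrix arrays was used. Total RNA, isolated with TRI Reagent and digested with DNase, was labelled with biotin, per the labels' protocols. The deposited values, from 0.93 to 12.77, were read as log2 expression values. Transcriptome Analysis Console is named by the submitters' processing notes. For its version, the summarisation, normalization and log base used and the genome build, the status is "not given in the sources used here". Scale and centring therefore stay unknown.

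Of the features, 16746 carried exactly 1 gene in the platform annotation, 758 several and 11079 none. Of those with 1 gene, 16697 matched a locus of the RefSeq table of TAIR10.1, which gave names only. No coordinates or sequences were used, and a planned count of promoter motifs was not run.

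Values entered limma 3.58.1 (R 4.3.3, functions lmFit, contrasts.fit and eBayes) without filter or further normalization, with 1 mean per group. There were 10 comparisons within organs (12 arrays, 8 residual degrees of freedom) and 8 between organs (24 arrays, 16). Tests were two-sided, and passing means an adjusted p (Benjamini-Hochberg over all features of the comparison) under 0.05. The fit was tested on simulated data. Members, gene lists and tests were chosen with earlier results of these data known. Named besides the members were listed genes that passed, up to 2 of smallest p of each other list, and the 5 genes most alike in pattern to each member. The rest of the GH3 and LBD families was described after the values were seen. A gene with several features was taken by its brightest. Of the 10 gene lists, those of receptors, response factors and transport had 0 measured members.

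Alternatives were median centring, quantile normalization, eBayes with trend and robust, array weights, other sets of arrays in the fit, the replicate number as a block, a filter on dim features and leaving out each array in turn.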

Additional observations from a re-analysis of the deposited data

How the results depend on the processing

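For 36 results, GH3.3 and LBD29 in 18 comparisons, 530 values were recomputed, and 497 kept direction and side of the threshold. Both organ differences passed in all 4 groups in every setting that gave a value. The filter on dim features left no value for GH3.3 within roots, for LBD29 within rosettes, or for either between organs. The higher level of GH3.3 in deficient rpt2-3a roots kept its size of 0.60 but did not pass with only the groups compared or with all 24 arrays in 1 fit, and ran from 0.51 to 0.67 with 1 array left out. With the replicate number as a block it was 0.60 (adjusted p = 0.032), and none of the 36 results changed its call under the block. Same-numbered arrays showed no general likeness. Their deviations from group means correlated at a median of 0.0085 in roots and -0.012 in rosettes, and 2 and 3 of 18 pairs exceeded 0.1. The highest same-numbered rosette pair reached 0.24, beside 0.135 for differently numbered ones. Between organs the medians were 0.022 for the same and -0.015 for different numbers. Whether same-numbered arrays were handled together cannot be told from these values.

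The other changes were of sign in values that never passed. For GH3.3 the difference of rpt2-3a sulfur responses between organs became -0.025 with quantile normalization and -0.024 with array weights, and its Col-0 rosette response became -0.0057 with array weights. For LBD29 the difference of mutant effects between organs at deficient sulfur became 0.00095 with array weights, and the difference of rosette responses became -0.013 with median centring and -0.026 with array weights.

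With 1 array left out, GH3.3 ran from -0.225 to 0.395 in the difference of Col-0 responses between organs, from -0.11 to 0.16 in that of rpt2-3a, from -0.23 to 0.39 in the Col-0 rosette response, and from -0.585 to 0.035 and from -0.048 to 0.16 between genotypes in rosettes at normal and deficient sulfur. LBD29 ran from -0.145 to 0.055 in the difference of mutant effects at deficient sulfur, from -0.042 to 0.14 between genotypes in deficient roots, from -0.01 to 0.125 between genotypes in rosettes at normal sulfur, and from -0.055 to 0.145 in the difference of rosette responses.

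The number of passing features moved more. It ran from 43 to 388 (220 as fitted) between genotypes in deficient roots, from 139 to 383 (250) for supply in Col-0 roots, from 10 to 154 (41) in rpt2-3a roots, from 58 to 283 (165) between genotypes in roots at normal sulfur, and from 0 to 12 (3) and 0 to 69 (0) for the differences of responses in roots and rosettes. In rosettes it ran from 5 to 185 (37) and 179 to 778 (444) for supply in Col-0 and rpt2-3a, and from 101 to 965 (574) and 32 to 278 (92) between genotypes at normal and deficient sulfur. Between organs it ran from 11350 to 19787 over the 4 direct comparisons and from 43 to 436 over the 4 differences of effects.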

Other observations

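Replicate 3 of Col-0 rosettes at normal sulfur, the array highest for GH3.3, stood at least 0.99 above both other arrays of its group for 64 of 28583 features (0.224%), 28 of them with 1 gene. Replicates 1 and 2 of the group did so for 58 and 4 features, and the other 21 arrays for 0 to 44.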
